A study of Homo sapiens with 16 samples.

Results

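The 34 genes described here are direct transcriptional targets of the tumour suppressor p53. They lie outside the main apoptosis, CDK inhibitor, MDM2 and sestrin families, though 7 of them are grouped here under cell death and survival signalling. The 34 genes were taken by symbol from a list of known targets, chosen with earlier results of these data known. All 34 had a row among the 60448 gene identifiers measured. Levels are in FPKM, fragments per kilobase of exon, scaled to library size. A gene was tested if its mean over the 16 libraries was at least 0.5 FPKM, a condition that 17198 identifiers and 32 of the 34 targets met. The lowest group mean among the 32 was 0.856 FPKM, for ACER2 in A549 with solvent (called untreated below), so none of them was let in by one high group alone. GLS2 and TNFRSF6B fell short of the condition and are given by their values.

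RNA was sequenced from A549, an established human lung adenocarcinoma line, and from A549/cDDP, a line made from it that resists cisplatin and that was kept in medium with cisplatin at a labelled 15 mM. The study asked how cisplatin acts on both lines, and what knockdown of the long noncoding RNA SCAT7 adds in A549/cDDP. The 16 libraries form 8 groups of 2. Untransfected A549 and untransfected A549/cDDP, seeded at 35000 cells a well, received the drug solvent or cisplatin (15 mM as labelled, a unit that was not checked here) for 24 h. A549/cDDP was also transfected with 12 pmol of a control gapmer or of a gapmer against SCAT7, and collected 48 h later, with solvent or cisplatin present for the last 24 h; a gapmer is an antisense oligonucleotide that has RNase H cut its target RNA. A549/cDDP is a single resistant line, and the labels do not say that the libraries of a group came from separate cultures, so each p-value measures the spread between libraries, which may be technical. Since these are bulk cells, a smaller share of expressing cells and less RNA per cell cannot be told apart.

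The p53 protein binds DNA as a tetramer at sites made of a pair of 10-base elements and switches on its targets when DNA damage blocks its destruction by MDM2. Its targets stop the cell cycle, repair DNA, alter metabolism and, if damage persists, kill the cell, and several of them act back on p53 itself. Cisplatin, which crosslinks the bases of DNA, is a classical trigger of the pathway.

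Promoter windows from 250 bases before to 50 after the start of each gene were available for 28 of the 34 targets (RefSeq, GRCh38.p14). The entries for ASCC3, CMBL, FBXO22, GADD45A, PHLDA3 and TP53INP1 were missing. The p53 consensus site, 20 bases made of 2 elements of 10 bases with no spacer, was searched on both strands. A match with at most 3 mismatches was found in 7 of the 28 windows (25.0%) and in 5.2% of all 35116 windows, and one with at most 2 mismatches in 2 of 28 (7.14%) and 0.649% of all. A single element with no mismatch occurred in 4 of 28 windows (14.3%), PLK2 among them, and in 6.63% of all. The short motif CATG, one form of the core of the element, occurred in 10 of 28 windows (35.7%) and in 54.9% of all. The 7 matches of 20 bases are printed because they are the sequences nearest to the known recognition site in the windows of the genes measured here. Each runs 5′ to 3′ on the strand of its gene, with the match in capitals and up to 5 flanking bases on each side.
AEN: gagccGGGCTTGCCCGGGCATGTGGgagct
GLS2: gccggAGGCTTGCTGGGGCATGCGCt
FDXR: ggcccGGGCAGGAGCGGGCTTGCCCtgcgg
GDF15: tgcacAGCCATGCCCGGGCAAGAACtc
RPS27L: aggagGGCCTAGAGCAGACAAGCCCgcccc
KITLG: cgagcGGACAAGGTTGGCCTAATCTgccaa
TGFA: gccggGGGCAGGCCCTGCCTAGTCTgcgtc
AEN and GLS2 carried 2 mismatches and the others 3. The stretches printed are chr15:88621301-88621330 (plus strand) for AEN, chr12:56488112-56488137 (minus strand) for GLS2, chr17:74872991-74873020 (minus strand) for FDXR, chr19:18386181-18386207 (plus strand) for GDF15, chr15:63157522-63157551 (minus strand) for RPS27L, chr12:88580628-88580657 (minus strand) for KITLG and chr2:70553858-70553887 (minus strand) for TGFA. The match of FDXR began 21 bases before the RefSeq start, that of AEN 34, of TGFA 56, of RPS27L 69 and of KITLG 181. Those of GDF15 and GLS2 began 29 and 30 bases after it. In the GENCODE models, which place these starts differently, all 7 printed stretches lie within the span of their gene. A match in such a window is a description of letters; p53 binding was not measured here, and sites outside the windows were not searched.

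Depth ran from 31350000 to 43140000 fragments a library, and replicates correlated across genes at 0.9908 to 0.9957. The SCAT7 gapmer libraries (31350000 to 33400000) were the shallowest as a set and the control gapmer libraries (42300000 to 43140000) the deepest. The epithelial keratins KRT7, KRT8 and KRT18 were abundant in every group. Not all epithelial markers were: the 6 listed, with KRT19, EPCAM and CDH1, ran from 0.584 to 4179 FPKM over single libraries. In solvent, CDH1 (-2.13) and EPCAM (-1.42) were lower in A549/cDDP than in A549. The lung factor NKX2-1 was at 0 in A549 and at 0.695 to 1.34 FPKM in A549/cDDP. The 4 lung markers summed to 0.830 to 1.64 FPKM in A549 with solvent and to 3.15 to 3.39 with cisplatin. In the A549/cDDP libraries that sum ran from 2.17 to 4.59. Endothelial markers did not exceed 0.235 FPKM. Of the fibroblast markers COL1A1 ran from 7.20 to 9.80 FPKM in the A549 libraries and from 25.9 to 52.7 in those of A549/cDDP, while COL3A1, DCN and LUM did not exceed 0.389. CDKN2A and MTAP, lost from the genome of A549, stayed at or under 0.399 FPKM. The antisense gene ELF3-AS1, listed by the RefSeq gene table as another name of SCAT7, gave 2.56 and 3.57 FPKM in the solvent libraries of the control gapmer and 0.594 and 0.837 in those of the SCAT7 gapmer (log2 difference -1.54, limma adjusted p = 7.5e-06). Under cisplatin the values were 3.73 and 3.23 against 1.69 and 2.18 (-0.71, limma adjusted p = 0.00355). Part of that gene lies opposite ELF3, and whether counting used the strand is not given in the sources used here.

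In parental A549, cisplatin raised every tested target. All 32 passed the test and none fell, at a median log2 change of 2.21, and 29 rose at least 2-fold; changes are differences of log2(FPKM + 0.5), and the test was limma with adjustment over all 17198 genes at 0.05. Over all genes tested, 33.3% were called higher and 27.1% lower, with a median of 0.06. Genes called higher made up 55.1% of all calls as deposited, 48.7% under median ratio scaling and 47.7% under quantile normalization. Every call of the 32 held when any single library was left out. The rises ran from 0.31 for PTP4A1 to 4.37 for TP53INP1. TP53INP1 (4.37), BTG2 (4.17), FDXR (3.80), ACER2 (3.52), GDF15 (3.35), TP53I3 (3.08), SPATA18 (3.03) and INKA2 (3.0) led the list. By role, the median was 3.05 for mitochondria, metabolism and redox, 2.59 for cell cycle, growth and kinases, 2.02 for autophagy and the p53 cofactor, 2.02 for a mixed set of 4 (the quality control genes ASCC3, FBXO22 and ANKRA2 with the ion channel TMEM63B), 1.95 for secreted and surface signals and 1.88 for cell death and survival signalling.

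**Figure D1:**
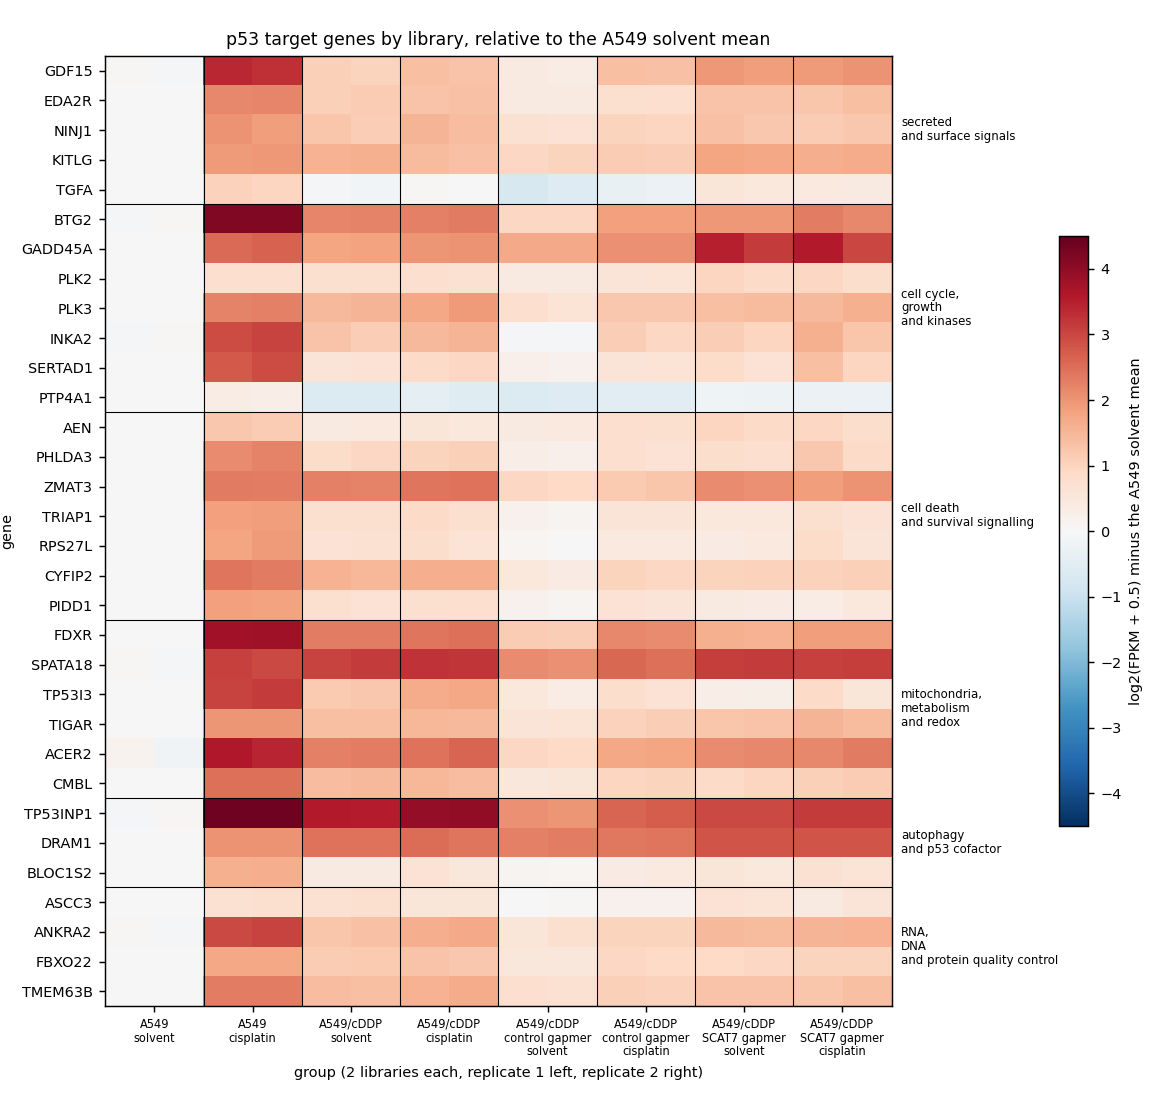
Each row is 1 of the 32 tested targets, grouped by role, and each column 1 library; the colour gives log2(FPKM + 0.5) minus the mean of the 2 A549 solvent libraries. A549 in cisplatin is the darkest group in most rows, A549/cDDP in solvent is already above A549 in solvent for 30 genes, and PTP4A1 is the row that lies below it in all A549/cDDP libraries.

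The secreted and surface signals were led by GDF15, a stress-induced cytokine of the TGF-beta family (ENSG00000130513, chr19:18374731-18389176, plus strand, GENCODE coordinates on hg38 as for all genes below). It measured 54.4 and 50.9 FPKM in the solvent libraries of A549 and 561 and 521 in cisplatin, 10.2-fold higher (log2 change 3.35, SE 0.052, limma adjusted p = 2.95e-13). EDA2R, a TNF-family receptor for ectodysplasin A2, went from 8.35 and 8.16 to 38.9 and 39.5 FPKM, and NINJ1, a membrane protein needed for rupture of dying cells, from 31.4 and 30.8 to 127 and 116. Of the growth factors, KITLG, the ligand of the receptor KIT, rose by 1.93 and TGFA, a ligand of the EGF receptor, by 1.01. TNFRSF6B encodes a decoy receptor that binds Fas ligand, and it was listed at 0 in all 16 libraries. At this depth 3 reads correspond to 0.0609 to 0.0839 FPKM, and its exons lie wholly within the readthrough gene RTEL1-TNFRSF6B, which measured 0.296 to 1.24 FPKM, so reads of both genes cannot be told apart by position.

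Of the genes of cell cycle, growth and kinases, all 7 rose in A549. BTG2, an antiproliferative protein that works with the CCR4-NOT deadenylase (ENSG00000159388, chr1:203305491-203309602, plus strand), went from 6.5 and 6.88 to 128 and 129.5 FPKM, 18-fold higher (limma adjusted p = 4.92e-14). GADD45A, a damage-induced protein that binds PCNA (ENSG00000116717, chr1:67685061-67688338, plus strand), went from 43.1 and 44.0 to 255 and 274. INKA2, an inhibitor of the kinase PAK4, went from 4.22 and 4.5 to 37.0 and 39.6. SERTAD1, a binding partner of CDK4, rose by 2.84. Of the 2 polo-like kinases, PLK3 went from 9.11 and 9.31 to 44.7 and 46.0 FPKM, and PLK2, already at 263 and 266 in solvent, reached 446 and 444 (log2 change 0.75, interval 0.66 to 0.85). PTP4A1, a phosphatase also called PRL-1, changed least, from 254 and 256 to 319 and 314 FPKM. For INKA2 91.3% and for PTP4A1 79% of the exon bases are shared with another gene model on the same strand, so their counts are uncertain.

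All 7 genes of cell death and survival signalling rose. The largest rises in it were in CYFIP2 (2.37), ZMAT3 (2.33) and PHLDA3 (2.17): CYFIP2 is a subunit of the WAVE actin regulator, ZMAT3 an RNA-binding zinc finger protein that acts on splicing, and PHLDA3 a repressor of AKT. ZMAT3 measured 4.88 and 4.94 FPKM in solvent and 26.8 and 26.4 in cisplatin. TRIAP1, a mitochondrial protein that favours survival, rose from 45.1 and 45.4 to 165 and 169.9, and RPS27L, a ribosomal protein close in sequence to RPS27, from 138 and 133 to 461 and 508. PIDD1, the scaffold that activates caspase-2, rose by 1.83 and AEN, an apoptosis-enhancing nuclease whose promoter window carries a site with 2 mismatches, by 1.17.

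The genes of mitochondria, metabolism and redox had the highest median of the 6 roles, 3.05, over 6 tested members. FDXR, the ferredoxin reductase of mitochondrial electron transfer (ENSG00000161513, chr17:74862497-74873031, minus strand), measured 41.1 and 41.0 FPKM in solvent and 577 and 580.5 in cisplatin, 13.9-fold higher (SE 0.03, limma adjusted p = 5.84e-16). TP53I3, a quinone oxidoreductase also called PIG3 (ENSG00000115129, chr2:24077433-24085861, minus strand), reached the highest level of all members, from 161 and 169 to 1349 and 1463 FPKM. ACER2, an alkaline ceramidase, started lowest of the tested members, at 1.0 and 0.711, and reached 16 and 14.1. SPATA18, which acts in mitochondrial quality control, went from 4.14 and 3.88 to 37.4 and 35.2. TIGAR, a fructose-2,6-bisphosphatase, rose by 1.99 and CMBL, a carboxymethylenebutenolidase homologue, by 2.47. GLS2, the liver-type glutaminase, was at 0.110 and 0 FPKM in solvent and 2.44 and 2.41 in cisplatin, and its highest value in any A549/cDDP library was 0.417. Fitted without the filter on low values, over 39459 genes, GLS2 rose by 2.40 in A549 (limma adjusted p = 3.72e-07), but 77.1% of its exon bases lie opposite SPRYD4, which measured 2.48 to 5.44 FPKM.

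TP53INP1, a p53 cofactor that also takes part in autophagy, showed the largest change of all members, from 1.0 and 1.13 to 32.1 and 31.7 FPKM (20.7-fold, SE 0.057, limma adjusted p = 6.76e-14). DRAM1, a lysosomal membrane protein of autophagy, went from 35.0 and 35.0 to 145 and 142, and BLOC1S2, a subunit of a complex that positions lysosomes, from 42.4 and 41.7 to 128 and 131. The remaining 4 members rose too. ANKRA2, an ankyrin repeat protein, went from 13.1 and 12.2 to 101 and 106 FPKM, TMEM63B, an osmosensitive ion channel, rose by 2.31, FBXO22, the substrate receptor of a ubiquitin ligase, by 1.73, and ASCC3, a helicase of DNA alkylation repair, by 0.70. The 4 members whose genes span more than 100 kb (ASCC3 at 373.2, DRAM1 at 134.8, CYFIP2 at 129.5 and TGFA at 106.9 kb) had a median rise of 1.52, the 15 members of at most 15 kb one of 2.24 and the other 13 one of 2.31, with overlapping ranges (0.70 to 2.37, 0.75 to 4.17 and 0.31 to 4.37).

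**Figure D2:**
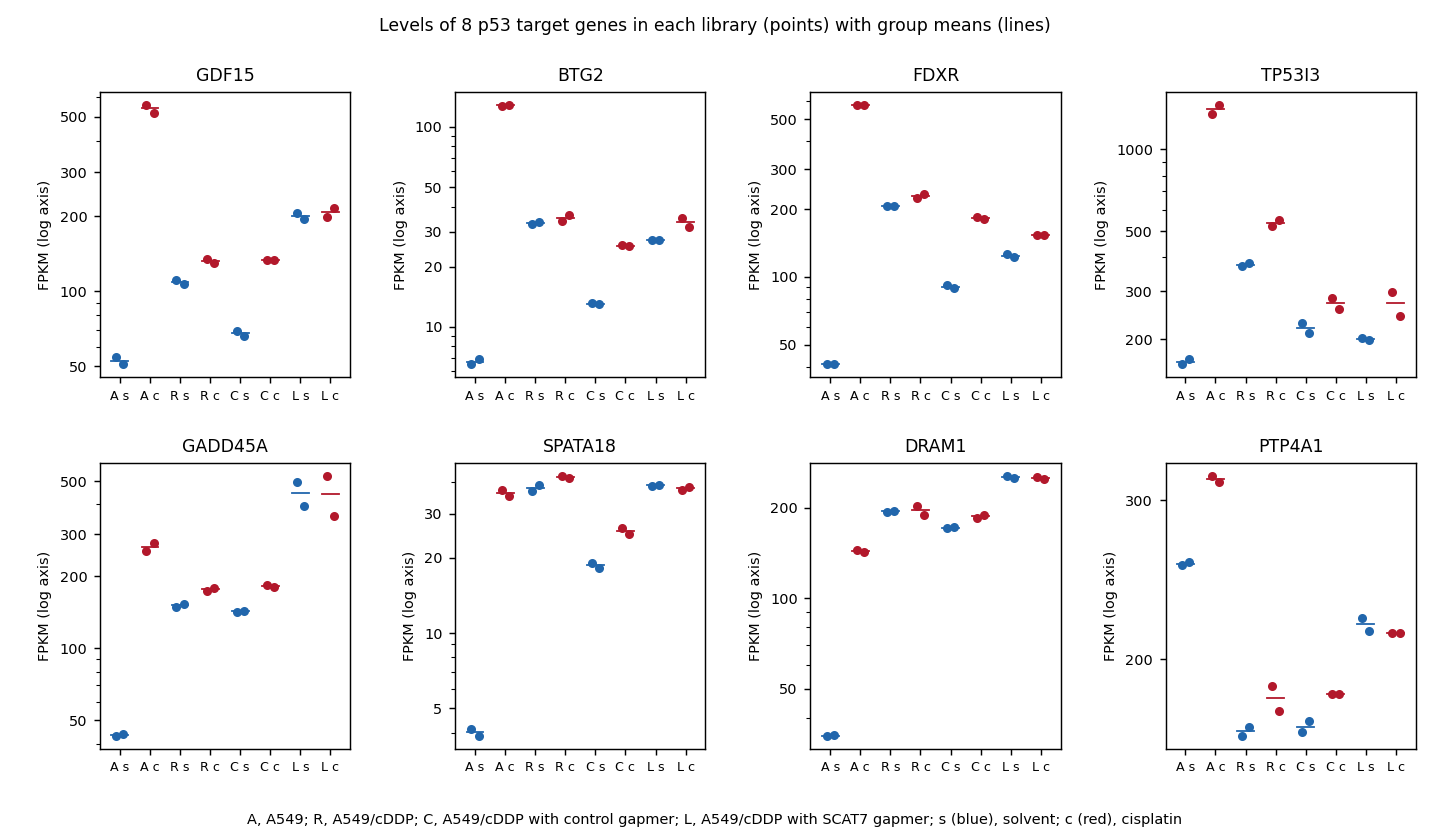
FPKM on a log axis in each of the 16 libraries (points) with group means (lines) for 8 targets. GDF15, BTG2, FDXR and TP53I3 peak in A549 with cisplatin, GADD45A and DRAM1 are highest with the SCAT7 gapmer, SPATA18 in A549/cDDP lies near or above cisplatin-treated A549 except with the control gapmer, and PTP4A1 is lower throughout A549/cDDP than in A549.

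Cisplatin changed few of the same genes in untransfected A549/cDDP, and none by 2-fold. Of 32 targets, 10 were called higher and 1 lower, and 21 did not pass; over all genes 3.55% were called higher and 4.55% lower. The median change of the members was 0.15 and of all genes 0.00. TP53I3 moved most, from 370.3 and 381 to 521 and 547 FPKM (log2 change 0.51, limma adjusted p = 0.00326). TP53INP1 went from 18.0 and 17.7 to 24.0 and 24.7, and ANKRA2 from 30.6 and 32.2 to 40.6 and 42.1. These 3 rises were the calls that held in every alternative fit. The other rises were PLK3 (0.34), GDF15 (0.28), NINJ1 (0.26), TMEM63B (0.25), BLOC1S2 (0.19), EDA2R (0.18) and FDXR (0.15), and KITLG (-0.21) was lower. Without replicate 1 of the solvent group 7 members were called, without its replicate 2 4, and without replicate 2 of the cisplatin group 7.

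Of the 8 members that led in A549, TP53INP1, FDXR, GDF15 and TP53I3 were thus called higher in the resistant line too, by at most 0.51, and the other 4 did not pass. BTG2 measured 32.7 and 33.3 FPKM in solvent and 33.9 and 36.2 in cisplatin, a log2 change of 0.08 with an interval of -0.03 to 0.19 (limma adjusted p = 0.367). ACER2 gave 0.24, INKA2 0.30 and SPATA18 0.15, with limma adjusted p = 0.212, 0.134 and 0.0901. None of the 7 genes of cell death and survival signalling passed. The largest value among them was 0.18 for ZMAT3 (limma adjusted p = 0.0506).

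The difference between both cisplatin effects was itself tested. All 32 members had a smaller effect in A549/cDDP, 28 of them by at least 1 on the log2 scale, with a median difference of -2.04. Over all genes 21.5% had a larger and 25.6% a smaller signed effect in A549/cDDP, with a median of -0.06. Larger effects made up 45.6% of all calls as deposited, 53.1% under median ratio scaling and 53.5% under quantile normalization. BTG2 differed most, by -4.08 (interval -4.24 to -3.93, limma adjusted p = 4.53e-12), followed by TP53INP1 (-3.94), FDXR (-3.65), ACER2 (-3.28), GDF15 (-3.07), SPATA18 (-2.88), INKA2 (-2.70) and ANKRA2 (-2.60). The smallest difference was that of PTP4A1, -0.19 (limma adjusted p = 0.0061), and it did not pass under median ratio scaling (-0.12). In the plot of cisplatin effects the A549 points stand to the right of those of untransfected A549/cDDP for all 32 genes, by least for PTP4A1.

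**Figure D3:**
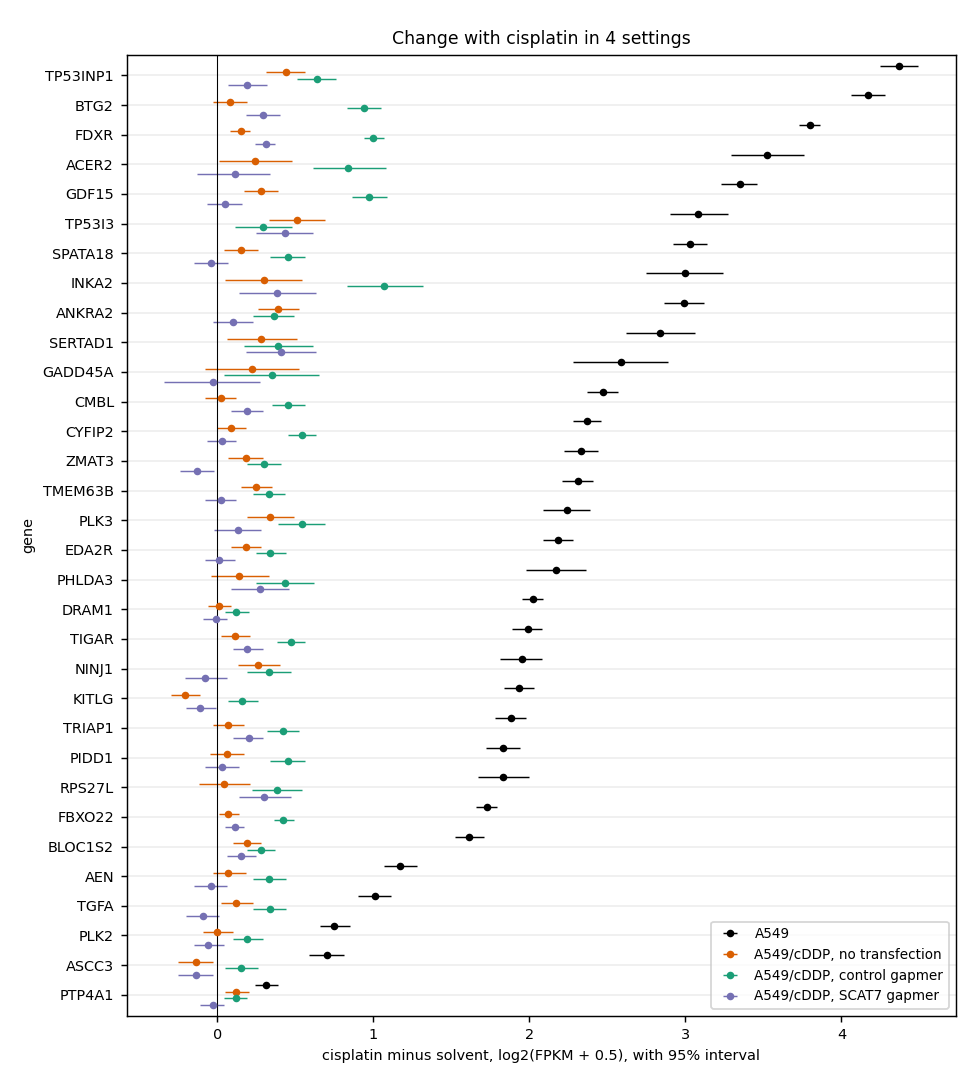
Log2 change with cisplatin (horizontal axis, with 95% intervals) for the 32 tested targets in A549, in untransfected A549/cDDP and in A549/cDDP with the control or the SCAT7 gapmer. The A549 changes run from 0.31 to 4.37, while those of untransfected A549/cDDP lie between -0.21 and 0.51, with the control gapmer between 0.12 and 1.07 and with the SCAT7 gapmer between -0.14 and 0.43.

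With solvent in place of cisplatin for 24 h, the targets already stood higher in A549/cDDP than in A549. Since A549/cDDP was kept in medium with cisplatin, the line and its earlier exposure cannot be told apart. In solvent 30 of 32 were higher and 21 of them at least 2-fold, PTP4A1 was lower, and TGFA did not pass (-0.08, limma adjusted p = 0.151). Over all genes 42.7% were called higher and 27.5% lower, and the median of all genes was 0.15 against 1.19 for the members. That shift of all genes came to 0.02 under median ratio scaling, where the members' median was 1.05; of all calls, 60.8% were higher as deposited, 49.7% under that scaling and 49.3% under quantile normalization. The members' calls held under both, and under median ratio scaling TGFA was called lower as well (-0.24).

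TP53INP1 differed most between the lines, 1.0 and 1.13 FPKM in A549 and 18.0 and 17.7 in A549/cDDP, 11.7-fold higher. SPATA18 stood at 36.8 and 39.0 against 4.14 and 3.88, 8.5-fold higher, and DRAM1 at 194 and 194 against 35.0 and 35.0. In each of these genes the libraries of the lines lay far apart. Next came FDXR (2.31), ACER2 (2.28), ZMAT3 (2.25), BTG2 (2.22) and GADD45A (1.79). At the low end of the calls were SERTAD1 (0.60), AEN (0.43) and BLOC1S2 (0.39). PTP4A1 fell from 254 and 256 FPKM in A549 to 164 and 168 in the resistant line (log2 difference -0.62, limma adjusted p = 7.9e-09). COL1A1 and NKX2-1 were also higher in A549/cDDP, and the 4 lung markers summed to more there (3.56 to 3.62 against 0.830 to 1.64 FPKM). The epithelial markers summed to less there (5555 to 5707 against 8414 to 8429 FPKM): CDH1 (-2.13), EPCAM (-1.42), KRT18 (-0.92), KRT8 (-0.61) and KRT7 (-0.51) were lower and KRT19 (0.85) was higher. The part of such line differences in the members' levels was not tested.

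The level of A549/cDDP in solvent can be placed on the range that A549 spans from solvent (0%) to cisplatin (100%). This is a description on the log2 scale without a test, since all 3 groups enter the position. The 32 members had a median position of 58.4%. Of these, 13 stood under 50%, 14 from 50% to under 90%, and 5 at 90% or more. DRAM1 (121.5%) and SPATA18 (102%) were above the level that A549 reached in cisplatin, and ASCC3 (99.8%), ZMAT3 (96.8%) and PLK2 (96.7%) were beside it. The helicase ASCC3, for example, measured 46.5 and 47.8 FPKM in cisplatin-treated A549 and 46.2 and 48.1 in A549/cDDP with solvent. SERTAD1 (21.2%), BLOC1S2 (24.1%) and GDF15 (31.1%) lay nearest to untreated A549 among the members that were higher. TGFA (-8%) and PTP4A1 (-197.5%) lay below it.

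**Figure D4:**
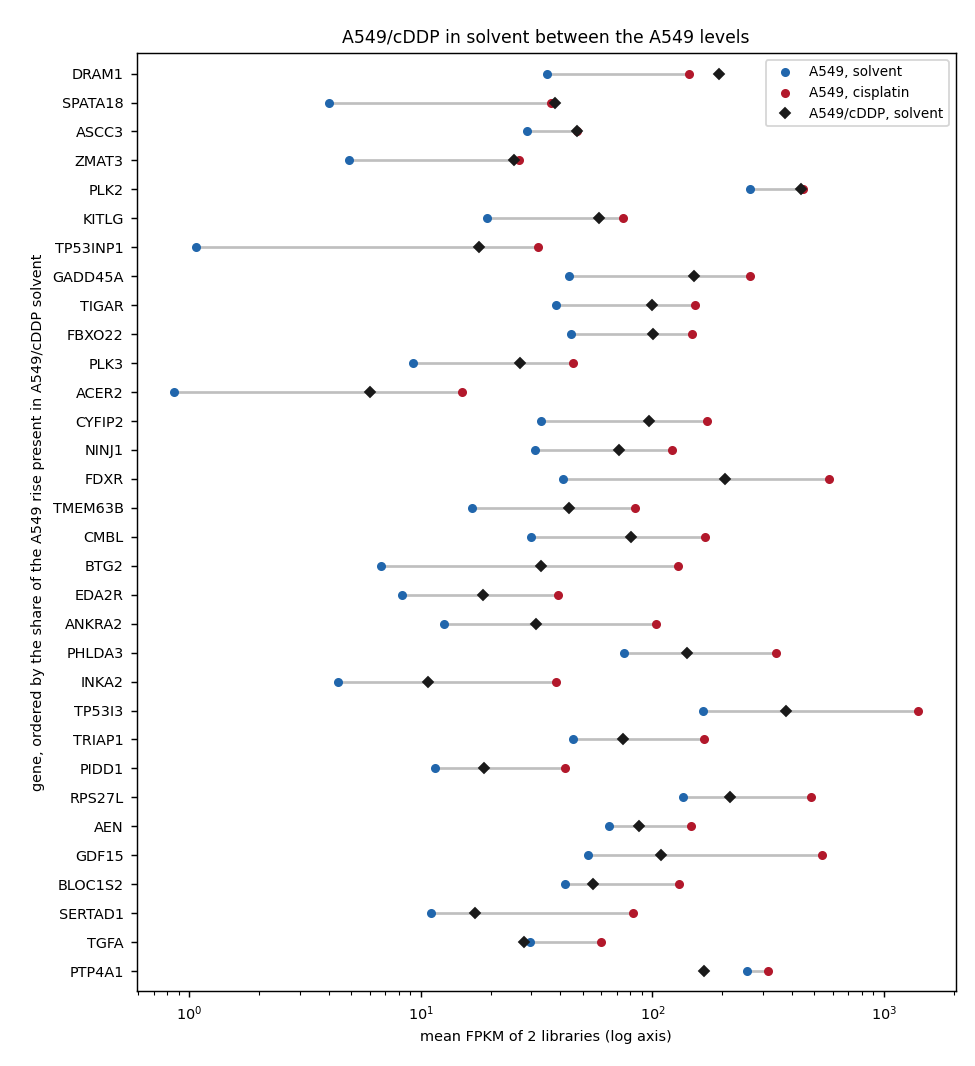
Mean FPKM (log axis, 2 libraries each) of the 32 tested targets in A549 with solvent, A549 with cisplatin and A549/cDDP with solvent, ordered by where A549/cDDP falls between the A549 levels. The diamond of A549/cDDP lies past the cisplatin level for DRAM1 and SPATA18 and below the solvent level for TGFA and PTP4A1.

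With cisplatin in both lines the order turned: 28 members were lower in A549/cDDP than in A549, 14 of them by at least 2-fold, and DRAM1 and SPATA18 were higher. Over all genes 37% were called higher and 29.5% lower. Higher genes were 55.6% of all calls, or 48.6% under median ratio scaling and 50.4% under quantile normalization. For the members 28 of 30 calls held in every alternative, and those of SPATA18 and ASCC3 were lost in some. The median was -0.84 for the members and 0.08 for all genes. GDF15 stood at 135 and 129.6 FPKM against 561 and 521 in A549, 4.07-fold lower, and SERTAD1 at 20.4 and 21.4 against 78.2 and 87.1. The other large differences were BTG2 (-1.86), INKA2 (-1.49), TP53I3 (-1.40), FDXR (-1.34), ANKRA2 (-1.32) and PHLDA3 (-1.14). DRAM1 was higher by 0.45, 203 and 189 against 145 and 142 FPKM. SPATA18 was higher by 0.21, and by 0.12 under median ratio scaling, where it did not pass. ZMAT3 (0.11, limma adjusted p = 0.084) and PLK2 (-0.02, limma adjusted p = 0.648) did not pass.

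Transfection with the control gapmer went with lower levels of most targets in A549/cDDP. In solvent, 29 of 32 were lower than in untransfected cells, 8 of them by at least 2-fold, and none was higher; over all genes 20.7% were called higher and 19% lower. The median was -0.66, against -0.01 for all genes. Genes called higher were 52.2% of all calls, or 45.8% under quantile normalization. For the members 28 of the 29 calls held in every alternative, and that of SERTAD1 was lost when a library was left out. TP53INP1 went from 18.0 and 17.7 FPKM without transfection to 6.03 and 5.65, ZMAT3 from 25.6 and 25.0 to 9.80 and 9.56, and BTG2 from 32.7 and 33.3 to 13.1 and 13.1. In all 3 the libraries of both groups lay far apart. The other members lower by at least 2-fold were ACER2 (-1.37), INKA2 (-1.27), FDXR (-1.18), CYFIP2 (-1.11) and SPATA18 (-1.01). GADD45A (-0.08, limma adjusted p = 0.674), AEN (-0.02, limma adjusted p = 0.773) and PTP4A1 (0.02, limma adjusted p = 0.722) did not pass. The groups differ in more than the oligonucleotide, since the labels give the transfection reagent and a collection 48 h later for transfected cells, and these effects cannot be told apart.

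In cisplatin, 27 members were lower with the control gapmer than without transfection and AEN was higher (0.24); over all genes 23% were called higher and 19.4% lower, and 54.3% of all calls were higher, or 43.9% under quantile normalization. The members' median was -0.36, and that of all genes 0.02. For the members 22 of 28 calls held in every alternative. Those of PHLDA3, RPS27L, PLK2, BLOC1S2, SERTAD1 and PIDD1 were each lost in some. TP53INP1 (-1.33) and ZMAT3 (-1.22) were the members lower by at least 2-fold, and TP53I3 measured 521 and 547 FPKM without and 283 and 258 with the gapmer (-0.98). The next were ACER2 (-0.77), SPATA18 (-0.71), ANKRA2 (-0.68), CYFIP2 (-0.66) and PLK3 (-0.62). GDF15 (0.01, limma adjusted p = 0.849), GADD45A (0.05, limma adjusted p = 0.827), DRAM1 (-0.07, limma adjusted p = 0.132) and PTP4A1 (0.02, limma adjusted p = 0.739) did not pass.

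In cells with the control gapmer, cisplatin raised 25 of the 32 targets and lowered none, and the changes of the 32 ran from 0.12 to 1.07; over all genes 1.67% were called higher and 0.855% lower. The members' median was 0.38 and that of all genes 0.02. Of all calls 66.2% were higher, or 52.6% under median ratio scaling. FDXR rose by 1.0, from 91.9 and 89.4 to 184 and 180.5 FPKM (limma adjusted p = 7.45e-09), and INKA2 went from 4.17 and 4.16 to 9.97 and 8.70. GDF15 went from 69.4 and 66.2 to 134 and 134 and BTG2 from 13.1 and 13.1 to 25.6 and 25.5. The cisplatin libraries lay above the solvent libraries in each of these genes. The next largest rises were ACER2 (0.84), TP53INP1 (0.64), CYFIP2 (0.54) and PLK3 (0.54). All 7 genes of cell death and survival signalling rose, from 0.30 for ZMAT3 to 0.54 for CYFIP2, but the calls of PHLDA3, ZMAT3 and RPS27L were lost in some fits with a library left out and in some other settings. The members that did not pass were GADD45A, TP53I3, DRAM1, ASCC3, SERTAD1, KITLG and PTP4A1. When a library was left out, 18 to 20 members were called, and 17 calls held in every alternative.

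The cisplatin effect was larger with the control gapmer than without transfection for 11 members, and smaller for none, a comparison that was added after the values had been seen. Over all genes 1.15% had a larger and 0.738% a smaller signed effect; 60.8% of all calls were larger, or 42.2% under median ratio scaling. The medians were 0.28 for the members and 0.02 for all genes. The differences were FDXR (0.86), BTG2 (0.85), INKA2 (0.78), GDF15 (0.69), CYFIP2 (0.45), CMBL (0.43), PIDD1 (0.39) and KITLG (0.37), with TIGAR (0.36), FBXO22 (0.35) and TRIAP1 (0.35) after them. The calls of GDF15, BTG2, FDXR, CYFIP2, FBXO22 and CMBL held in every alternative. Leaving out replicate 1 or 2 of the untransfected solvent group, replicate 2 of the untransfected cisplatin group, or either replicate of the control gapmer in cisplatin left 7 members called.

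With the SCAT7 gapmer in place of the control gapmer, the targets were higher. The labels name a single gapmer against SCAT7, so the knockdown and other effects of that oligonucleotide cannot be told apart. In solvent 31 of 32 were higher and none lower, 8 by at least 2-fold, and all these calls held in every alternative; TP53I3 did not pass (-0.14, limma adjusted p = 0.171). Over all genes 33.2% were called higher and 22.7% lower, and the medians were 0.59 for the members and 0.06 for all genes. The share of higher genes among all calls was 59.4%, or 52.3% under median ratio scaling and 49.9% under quantile normalization. GADD45A rose most, from 142 and 144 FPKM to 497 and 393 (log2 change 1.62, SE 0.139, limma adjusted p = 1.11e-06), with more spread between its SCAT7 gapmer libraries than between those of the control gapmer. GDF15 went from 69.4 and 66.2 to 206 and 195, TGFA from 17.9 and 19.6 to 43.9 and 41.7, and ZMAT3 from 9.80 and 9.56 to 22.9 and 21.8. Every SCAT7 gapmer library of these genes exceeded both control gapmer libraries. The other rises of at least 2-fold were ACER2 (1.24), INKA2 (1.10), SPATA18 (1.05) and BTG2 (1.03). The signals EDA2R (0.88) and KITLG (0.79) also rose, and the smallest rises were PIDD1 (0.23), TRIAP1 (0.31) and RPS27L (0.34).

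This comparison and that of the control gapmer with untransfected cells share the control gapmer libraries, so levels are set side by side. TP53INP1 had means of 17.9 FPKM in untransfected A549/cDDP in solvent, 5.84 with the control gapmer and, under the SCAT7 gapmer, 11.7. SPATA18 had 37.9, 18.6 and 39.0, and BTG2 33.0, 13.1 and 27.3. In these genes the control gapmer group was the lowest of the 3. GADD45A, with 152, 143 and 445, and GDF15, with 109, 67.8 and 200.3, had their highest level of the 3 with the SCAT7 gapmer. FDXR, at 206, 90.6 and 124, and TP53I3, at 376, 220.4 and 199.7, had it in untransfected cells.

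In cisplatin, 26 targets were higher with the SCAT7 gapmer than with the control gapmer, and FDXR (-0.24) and PIDD1 (-0.19) were lower. Of these 28 calls 21 held in every alternative. Those of AEN, PHLDA3, RPS27L, INKA2, FBXO22, NINJ1 and PIDD1 were each lost in some. Over all genes 28.6% were called higher and 21.1% lower. The medians were 0.33 for the members and 0.04 for all genes. GADD45A again led, at 525 and 356 FPKM against 184 and 181 (1.24, limma adjusted p = 1.62e-05). After it came ZMAT3 (0.74), TGFA (0.74), GDF15 (0.63), SPATA18 (0.56), EDA2R (0.55), ANKRA2 (0.55) and SERTAD1 (0.54). FDXR stood at 154 and 154 FPKM against 184 and 180.5 with the control gapmer (limma adjusted p = 3.49e-05), so its direction was opposite to that in solvent. TP53I3 (0.00, limma adjusted p = 0.986), TRIAP1 (0.09, limma adjusted p = 0.119), CYFIP2 (0.09, limma adjusted p = 0.0982) and CMBL (0.12, limma adjusted p = 0.0556) did not pass, and the call of PIDD1 was lost in a fit of the compared libraries alone, without replicate 1 of the control gapmer in cisplatin (-0.16) or without replicate 1 of the SCAT7 gapmer in cisplatin (-0.12).

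The library depth, the level of the macrophage marker CD68 (0.722 and 0.958 FPKM with the SCAT7 gapmer and 0.145 and 0.0725 with the control gapmer, in solvent) and the fibroblast markers moved with the gapmer. The 4 fibroblast markers summed to 27.9 to 29.9 FPKM with the SCAT7 gapmer in solvent against 39.9 to 40.7 for the control gapmer, nearly all of it COL1A1, while DCN reached 0.377 FPKM in a SCAT7 gapmer library and was at 0 in all those of the control gapmer. The leukocyte gene CD3E was at 0 in all gapmer libraries and PTPRC at or under 0.115 FPKM. Summed over 3 markers, the leukocyte list ran from 0.722 to 0.958 FPKM with the SCAT7 gapmer and from 0.0725 to 0.260 with the control gapmer in solvent, all under 1 FPKM. The summed epithelial markers ran from 5238 to 5325 and from 6664 to 6964 FPKM, with 5 of the 6 called lower and KRT19 (0.11) higher. The part of any of these in the members' differences was not tested.

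**Figure D5:**
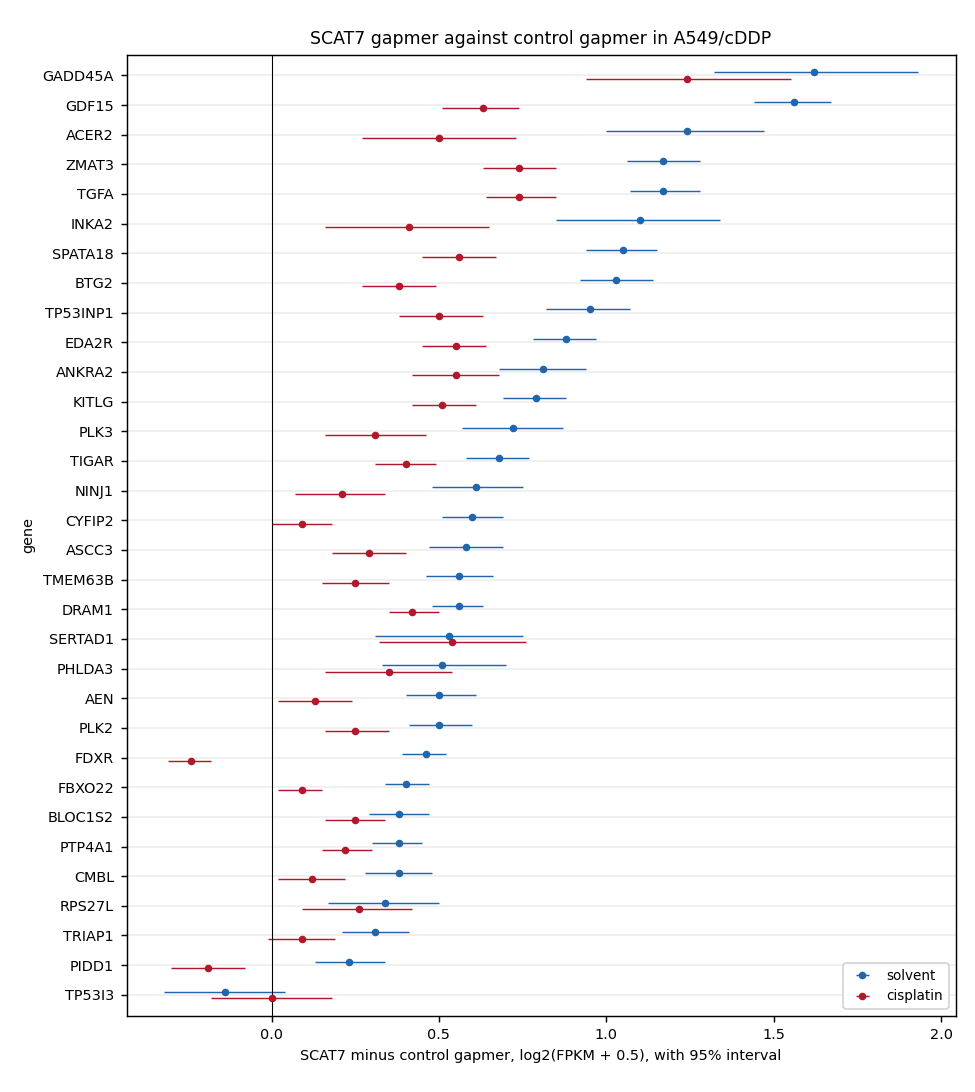
Log2 difference of the SCAT7 gapmer from the control gapmer (horizontal axis, with 95% intervals) in A549/cDDP for the 32 tested targets, in solvent and in cisplatin. In solvent all values but that of TP53I3 lie above 0, from 0.23 to 1.62; in cisplatin FDXR and PIDD1 lie below 0.

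In cells with the SCAT7 gapmer, cisplatin itself changed few targets: 8 were called higher and none lower, all by less than 2-fold, with a median of 0.08 against -0.01 for all genes. Over all genes 2.92% were called higher and 1.26% lower, and 69.8% of all calls were higher, or 57.6% under median ratio scaling and 59.4% under quantile normalization. The 8 were TP53I3 (0.43), SERTAD1 (0.41), FDXR (0.31), RPS27L (0.30), BTG2 (0.29), TRIAP1 (0.20), CMBL (0.19) and TIGAR (0.19). GDF15, which had risen with the control gapmer, measured 206 and 195 FPKM in solvent and 199 and 215 in cisplatin, with overlapping libraries (limma adjusted p = 0.643). None of the 8 calls held in every alternative. A fit of the 4 libraries alone called 0 members in limma, with 11 of 32 at an unadjusted p under 0.05. Without replicate 1 of the SCAT7 gapmer in solvent, or replicate 1 in cisplatin, 1 member was called, without replicate 2 in solvent 3, and FDXR alone kept its call whichever library was left out.

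The cisplatin effect was smaller with the SCAT7 gapmer than with the control gapmer for 14 members and larger for none; over all genes 0.488% had a larger and 0.442% a smaller signed effect. The medians were -0.32 for the members and -0.02 for all genes. GDF15 differed most (-0.93, interval -1.09 to -0.77, limma adjusted p = 0.00015), and FDXR by -0.70 (limma adjusted p = 1.38e-05); these 2 calls held in every alternative. The other large differences were ACER2 (-0.74), BTG2 (-0.65), CYFIP2 (-0.51), SPATA18 (-0.49), TP53INP1 (-0.44) and ZMAT3 (-0.43), and TGFA (-0.43), PIDD1 (-0.42), AEN (-0.38), EDA2R (-0.33), TMEM63B (-0.31) and FBXO22 (-0.31) were called as well. Without replicate 1 or 2 of the control gapmer in solvent 6 or 7 members were called, without its replicate 1 or 2 in cisplatin 9 or 6, and without replicate 1 of the SCAT7 gapmer in solvent 6. TP53I3 (0.14) and SERTAD1 (0.01) had values above 0 that did not pass. Since both gapmer comparisons and this one are built from the same 8 libraries, they are not independent of one another. With the SCAT7 gapmer, ELF3-AS1 itself rose from 0.594 and 0.837 FPKM in solvent to 1.69 and 2.18 in cisplatin (limma adjusted p = 0.014). Its log2 difference from the control gapmer was -1.54 in solvent and -0.71 in cisplatin. The change in that difference did not pass (0.83, limma adjusted p = 0.14). The part of the weaker knockdown in the members' smaller effects was not tested.

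Across the 8 groups, 27 of the 32 tested targets had their highest mean in A549 with cisplatin. GADD45A, PLK2 and DRAM1 had it with the SCAT7 gapmer in solvent, in ranges that overlap those of the same gapmer in cisplatin, and SPATA18 and ZMAT3 in A549/cDDP with cisplatin. For PLK2 the order was close: 511 and 481 FPKM with the SCAT7 gapmer in solvent, 499 and 456 with it in cisplatin and 446 and 444 in cisplatin-treated A549, so that A549 lay just below both. The lowest mean was that of untreated A549 for 29 targets and that of the control gapmer in solvent for INKA2 and TGFA. For PTP4A1 it was that of untransfected A549/cDDP in solvent. In INKA2 the lowest values lay close together, 4.17 and 4.16 FPKM with the control gapmer and 4.22 and 4.5 in untreated A549.

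Another 19 genes of the p53 pathway were measured beside the members: the regulators MDM2, MDM4 and PPM1D, CCNG1, the cell cycle inhibitors CDKN1A and SFN, the apoptosis genes BAX, BBC3, PMAIP1, FAS, TNFRSF10A, TNFRSF10B and APAF1, the sestrins SESN1 and SESN2 and the repair genes XPC, DDB2, POLH and RRM2B. All rose with cisplatin in A549 (19 of 19, median 2.21), where 33.3% of all genes were called higher. In untransfected A549/cDDP 5 rose and 14 did not pass, with 3.55% of all genes called higher. In solvent 18 were higher in A549/cDDP than in A549 (42.7% of all genes), and MDM4 (0.00, limma adjusted p = 0.97) did not pass. With the SCAT7 gapmer in solvent 14 were higher than with the control gapmer (33.2% of all genes). MDM4 (0.11, limma adjusted p = 0.218), SFN (-0.08, limma adjusted p = 0.135), BAX (-0.05, limma adjusted p = 0.372), APAF1 (0.06, limma adjusted p = 0.33) and DDB2 (0.01, limma adjusted p = 0.897) did not pass. In cisplatin 11 were higher with the SCAT7 gapmer, 5 did not pass, and DDB2 (-0.36), BAX (-0.18) and SFN (-0.16) were lower. Of all genes 28.6% were called higher and 21.1% lower in that comparison. CDKN1A, the inhibitor p21, measured 266 and 269 FPKM with the control gapmer in solvent and 626 and 623 with the SCAT7 gapmer. The control gapmer in solvent group had 16 of the 19 lower and MDM4 higher (0.35) than untransfected cells, with 19% of all genes called lower. The cisplatin effect was smaller with the SCAT7 than with the control gapmer for 9 and larger for none, and smaller for 0.442% of all genes.

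Some values depend on how reads were assigned. Besides INKA2 and PTP4A1, TIGAR shares 42.6% of its exon bases with another model on the same strand, and PHLDA3 19.1% with a noncoding model that was listed at 0. On the opposite strand FBXO22 shares 16.2% with NRG4 and ANKRA2 9.2% with UTP15, and without the strand setting of the counting these reads cannot be told apart. RPS27L and PTP4A1 have near copies elsewhere in the genome, so their levels are uncertain too.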

How the data were processed

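The authors deposited 1 table of FPKM values for 60448 genes in 16 libraries, made with TopHat2, HTSeq 0.6.1 and hg38 per the submitters' processing notes. Which annotation release and strand option they used is not given in the sources used here; gene models were taken from GENCODE 29. Low values came out as whole reads for 69.6% to 74.6% of genes (tolerance 0.05 reads), so read numbers are approximate and no count test was run. Depth was estimated from these steps.

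The 17198 genes whose mean reached 0.5 FPKM were fitted as log2(FPKM + 0.5) in 1 limma model of the 8 groups (limma 3.58.1, R 4.3.3, 8 residual degrees of freedom, trended prior), with two-sided tests adjusted by Benjamini-Hochberg over all genes and called at 0.05. Intervals are 95% confidence intervals of the fit. A further gene of the p53 pathway is not reported here. The 34 genes, their roles and the lists beside them were chosen with earlier results of these data known. Named in each comparison were up to 8 of the largest called changes in each direction whose groups did not overlap, and members that did not pass where 5 or fewer did not; other members named in a comparison were chosen after their values were seen. Alternatives were pseudocounts of 0.1 and 1, no filter or a mean of at least 1 FPKM, median ratio and quantile scaling, fits of the compared libraries alone, no trend in the prior, the replicate number as a block, and each library left out.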

Additional observations from a re-analysis of the deposited data

Results flagged for a closer look

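The cisplatin effect differed between A549 and untransfected A549/cDDP, by the test of the difference itself, for 32 members; the largest were BTG2 (-4.08), TP53INP1 (-3.94), FDXR (-3.65) and ACER2 (-3.28), as log2 effect in A549/cDDP minus that in A549. It differed between the SCAT7 gapmer and the control gapmer for 14 members, most for GDF15 (-0.93), ACER2 (-0.74), FDXR (-0.70) and BTG2 (-0.65), as the effect with the SCAT7 gapmer minus that with the control gapmer. It also differed between the control gapmer and no transfection for 11 members, most for FDXR (0.86), BTG2 (0.85), INKA2 (0.78) and GDF15 (0.69). Both of these gapmer differences share the control gapmer libraries and are not independent. With the SCAT7 gapmer, the knockdown target ELF3-AS1 was itself higher in cisplatin than in solvent (limma adjusted p = 0.014).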

How the results depend on the processing

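The number of members called stayed within 1.5 times its reported value in every alternative for the cisplatin effect in A549 and with the control gapmer, for the line comparisons, and for the transfection and SCAT7 gapmer comparisons within solvent and within cisplatin. It moved further in 4 comparisons. Cisplatin with the SCAT7 gapmer, 8 members as reported, gave 3 under median ratio scaling, 3 with no trend in the prior, 5 with the replicate block and 0 in a limma fit of the compared libraries alone, where 11 of 32 members and 1942 of 17198 genes had an unadjusted p under 0.05. A fit of the compared libraries alone gave 4 in place of 11 for cisplatin in untransfected A549/cDDP and 2 in place of 14 for the SCAT7 gapmer difference in the cisplatin effect. Leaving out 1 library gave 4 to 8 for cisplatin in untransfected A549/cDDP, 1 to 11 for cisplatin with the SCAT7 gapmer, 6 to 18 for the SCAT7 gapmer difference in the cisplatin effect and 7 to 10 for the transfection difference in it. Such fits have fewer libraries to estimate the spread; for the other settings the cause was not tested. For single members, 3623 values stayed called or stayed uncalled under the other settings, 100 lost and 21 gained the call. With a library left out these numbers were 1866, 166 and 16. No called value changed sign, while the direction of values called in neither fit was not followed. Libraries of the same replicate number shared only that number (correlation of deviations -0.07 to 0.11), and the replicate block moved no other count by over 1.5 times.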
